A study of Macaca mulatta with 8 samples.

Results

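Cluster 5 is 1 of 10 clusters into which the authors divided 25397 CD4-enriched blood cells of rhesus macaques, and its members are the cells to which their deposited annotation gives that number. It holds 1218 cells and belongs to the class the authors call Tconv, the conventional (non-regulatory) CD4 T cells, which has 17212 cells in all. The series traced adoptively transferred regulatory T cells (Tregs) in blood. Single cells were captured in droplets and their transcripts counted by unique molecular identifiers (UMIs), each standing for 1 captured transcript. On day 20 and on day 3, CD4-enriched cells from frozen blood mononuclear cells were sorted into 4 populations, each captured as 1 library. The CD127-positive CD25-negative, CD127-positive CD25-positive and CD25high CD127low sorts were gated as CD3+ and CD4+, and the fourth was sorted for the dye CFSE, which cells keep and dilute as they divide. CD127 is the interleukin-7 receptor chain encoded by IL7R, and CD25 the interleukin-2 receptor chain encoded by IL2RA. The sources used here give neither the number and age of the animals nor any treatment apart from the transfer.

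Most CD4 T cells help other immune cells through cytokines and surface ligands and carry no lytic granules. A minority of antigen-experienced CD4 cells in human blood instead carries granzymes, which are proteases that trigger death of target cells, together with other granule proteins and chemokines usually associated with CD8 T cells and natural killer (NK) cells. Naive T cells express the transcription factors TCF7 and LEF1, and lose them as they become effector cells.

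The members came almost entirely from the CD127-positive CD25-negative sort. Its day 20 library held 612 of them, which was 16.9% of its 3620 Tconv cells (95% interval 15.7 to 18.2%), and its day 3 library held 549, which was 18.5% of 2960 (17.2 to 19.995%). Both libraries together supplied 1161 cells, or 95.3% of the cluster, and the intervals of both days overlapped. In the CD127-positive CD25-positive sort, cluster 5 made up 22 of 4450 Tconv cells on day 20 (0.494%) and 5 of 2675 on day 3 (0.187%). In the CD25high CD127low sort it made up 15 of 1356 on day 20 (1.11%) and 7 of 2037 on day 3 (0.344%). The CFSE-positive sort contained few Tconv cells, of which cluster 5 had 5 of 63 on day 20 (7.94%, 2.63 to 17.6%) and 3 of 51 on day 3 (5.88%, 1.23 to 16.2%). The gates set which cells each library could hold, and with 1 library per sort and day there was no replicate and no test. Intervals throughout are exact and cover counting error only.

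**Figure D1:**
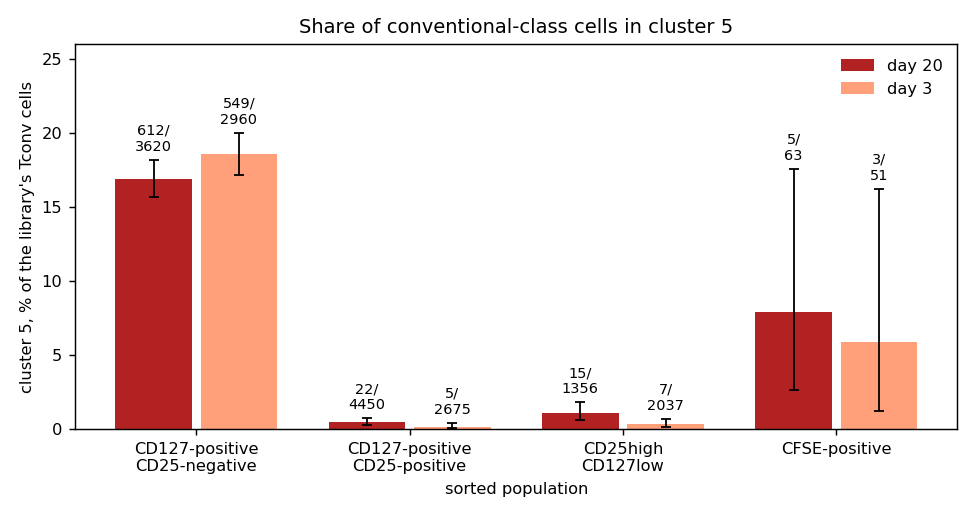
Share of each library's Tconv cells that the authors placed in cluster 5 (y axis, percent), by sorted population (x axis) on day 20 and day 3. Bars are shares, error bars exact 95% binomial intervals, and the numbers give cluster 5 cells over Tconv cells. The CD127-positive CD25-negative bars stand at 16.9% and 18.5%, and the wide intervals of the CFSE-positive sort rest on 63 and 51 cells.

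The comparisons across genes rest on both CD127-positive CD25-negative libraries, the only ones with at least 50 cells of cluster 5. Their cluster 5 cells summed to 983420 UMIs on day 20 and 983634 on day 3, and the other Tconv cells (clusters 6 to 10) to 6998629 and 6338298. Cluster 5 cells were shallower, with a median of 1522 UMIs on day 20 against 2298 in other Tconv cells, and 1618 in cluster 5 on day 3 against 2569 in other Tconv cells. They contained more different genes at equal depth, with a median of 498 genes per 1000 UMIs on day 20 against 408 in other Tconv cells, and 490 in cluster 5 on day 3 against 397 in other Tconv cells. Ribosomal protein genes took up a median of 29.6% and 29.98% of a cluster 5 cell's UMIs on day 20 and day 3, against 43.4% and 44.3% in other Tconv cells. Mitochondrial genes took up 4.13% and 4.06% in cluster 5 on day 20 and day 3, against 3.45% and 3.31% in other Tconv cells. Across the series, 382 cell barcodes occurred in more than 1 library, and they marked 39 cells of cluster 5.

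Levels are given as CPM, the usual scaling of counts to a common total, taken over the summed cells, and ratios as log2 of cluster 5 over other Tconv cells within a library with 10 CPM added to each side, averaged over both days. The authors drew the clusters from these same cells, by a method the sources used here do not give, so every ratio describes the cluster and none was tested. Of 2175 genes with at least 50 CPM on either side, 274 (12.6%) were at least 2-fold higher in cluster 5 on average and higher on both days, and 48 (2.21%) were lower by the same rule. The authors' gene table marks 880 of the 2175 for ordering cells, 242 of them among the higher and 35 among the lower genes. The ratio depends on the total, since the median gene stood at 0.42. With trimmed-mean (TMM) factors, which move the median gene by -0.43, 126 genes were higher and 188 lower, with median-of-ratios factors 133 and 159, and with totals that left out ribosomal, mitochondrial and hemoglobin genes 131 and 167. Ratios of moderate size are therefore read against that shift. The 12 higher and the 12 lower genes with the largest ratios stayed 2-fold apart under each of these scalings.

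Granule and cytotoxicity genes stood highest. GZMB, the protease granzyme B, had 5704 CPM in cluster 5 on day 20 (5555 to 5855) against 16.1 CPM in other Tconv cells, and 4962 CPM in cluster 5 on day 3 (4824 to 5103) against 22.6 CPM in other Tconv cells. These levels were 353-fold and 219.9-fold higher, and the groups were far apart on both days. NKG7, a membrane protein of cytotoxic granules, had 1172 CPM in cluster 5 against 16.4 CPM in other Tconv cells on day 20, and 1274 CPM in cluster 5 against 12.6 CPM in other Tconv cells on day 3. GNLY, encoding the pore-forming granule protein granulysin, had 1255 CPM in cluster 5 against 31.4 CPM in other Tconv cells on day 20, and on day 3, 1155 CPM in cluster 5 against 27.1 CPM in other Tconv cells. CST7, a protease inhibitor of cytotoxic cells, had 638 CPM in cluster 5 against 9.14 CPM in other Tconv cells on day 20, and on day 3, 625 CPM in cluster 5 against 8.84 CPM in other Tconv cells. CMA1, named for a mast cell chymase in human and neighbouring the granzyme genes there, had 203 CPM in cluster 5 on day 20 and 184 CPM on day 3, against 0.429 and 0.789 CPM in other Tconv cells. RGS9, a regulator of G protein signalling, had 242 CPM in cluster 5 against 4.86 CPM in other Tconv cells on day 20, and on day 3, 177 CPM in cluster 5 against 2.37 CPM in other Tconv cells. TSPAN2, a tetraspanin membrane protein, had 209 CPM in cluster 5 against 4.86 CPM in other Tconv cells on day 20, and on day 3, 207 CPM in cluster 5 against 6.15 CPM in other Tconv cells.

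Other granzymes were also higher in cluster 5. GZMM had 294 CPM in cluster 5 and 40.7 CPM in other Tconv cells on day 20, and 283 and 36.9 CPM on day 3. GZMH had 87.4 CPM in cluster 5 on day 20 and 122 CPM on day 3, against 0.286 and 0.316 CPM in other Tconv cells. GZMK had 69.1 CPM in cluster 5 against 20.9 CPM in other Tconv cells on day 20, and on day 3, 50.8 CPM in cluster 5 against 9.31 CPM in other Tconv cells, while GZMA had 32.5 and 12.2 CPM in cluster 5 on day 20 and day 3, against 0.572 and 0.158 CPM in other Tconv cells. GZMH and GZMB lie next to each other in the RefSeq annotation and are alike in sequence, so the split of reads between them is uncertain.

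Of 21 genes in a list of cytotoxic genes, 18 were found in the table and 17 reached 20 CPM, and each of the 17 was at least 2-fold higher, with a median log2 ratio of 3.52. Over all 4184 genes at that level, 9.3% were 2-fold higher, 1.79% lower, and the median was 0.36. A gene that reaches 20 CPM only through cluster 5 has to be higher there, so the count describes the list and no more. CCL5, the chemokine RANTES, was the member below that level, with 4 UMIs in cluster 5 on day 20 and 5 on day 3. The remaining 3 members, perforin (PRF1) among them, were not analysed here.

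**Figure D2:**
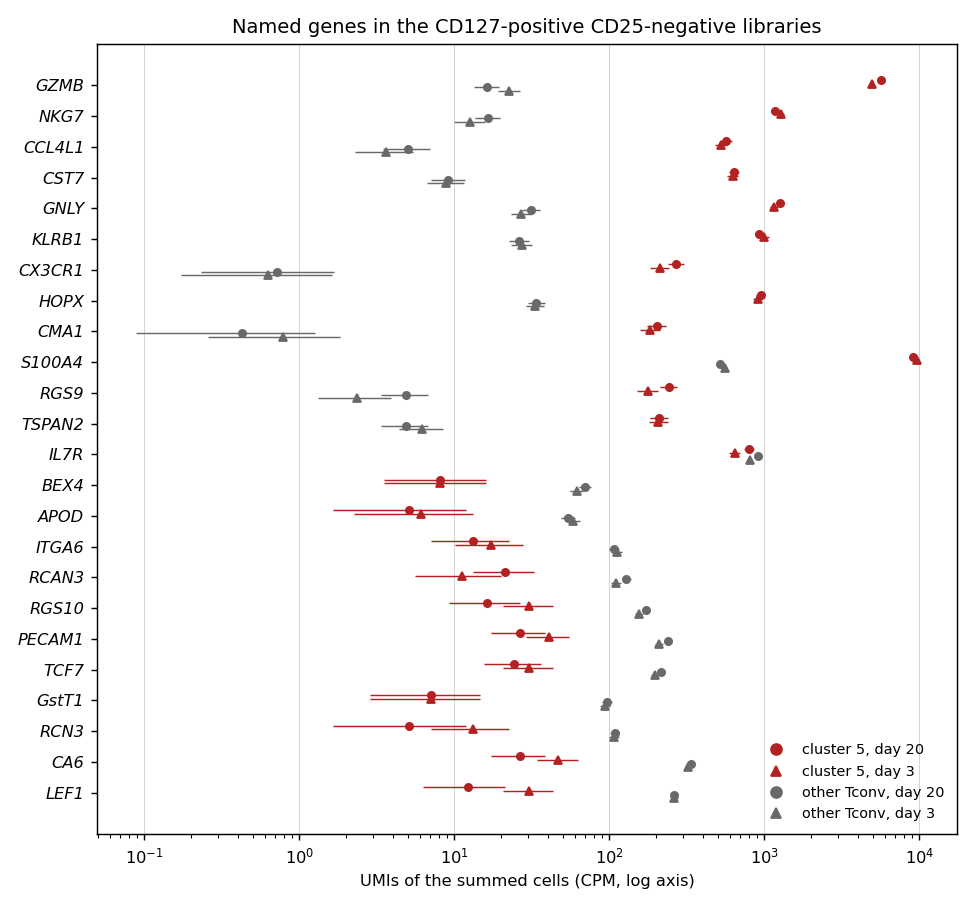
Levels of the named genes that were higher, IL7R, and those that were lower in cluster 5 (y axis, genes), in CPM on a log x axis. Red marks cluster 5 and grey the other Tconv cells, circles day 20 and triangles day 3, with exact 95% Poisson intervals. In each of these genes but IL7R the red and grey marks are apart on both days, while for IL7R they lie close together, at 646 to 914 CPM.

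Genes of a chemokine and of surface receptors were among the 12 with the largest positive ratios. CCL4L1, a CCL4-like chemokine of a family with near-identical copies, had 569 CPM in cluster 5 on day 20 and 528 CPM on day 3, against 5.001 and 3.63 CPM in other Tconv cells. CX3CR1, the fractalkine receptor, which marks effector lymphocytes that patrol vessels, had 270.5 and 211 CPM in cluster 5 on day 20 and day 3, against 0.714 and 0.631 CPM in other Tconv cells. KLRB1, the lectin-like receptor CD161, had 930.4 CPM in cluster 5 against 26.1 CPM in other Tconv cells on day 20, and on day 3, 1001 CPM in cluster 5 against 27.3 CPM in other Tconv cells. TGFBR3, a coreceptor for TGF-beta, had 194 CPM in cluster 5 against 6.43 CPM in other Tconv cells on day 20, and on day 3, 228 CPM in cluster 5 against 10.1 CPM in other Tconv cells. NKG2D, an activating receptor of NK and effector T cells, had 113 and 98.6 CPM in cluster 5 on day 20 and day 3, against 1.57 and 2.05 CPM in other Tconv cells. NCR3, the activating receptor NKp30, had 113 and 126 CPM in cluster 5 on day 20 and day 3, against 1.71 and 2.05 CPM in other Tconv cells. HCST, the signalling adaptor of NKG2D, had 1352 and 1342 CPM in cluster 5 on day 20 and day 3, against 279 and 254 CPM in other Tconv cells. S1PR5, a sphingosine 1-phosphate receptor of NK and effector cells, had 70.2 CPM in cluster 5 on day 20 and 40.7 CPM on day 3, against 0.286 CPM and 0 CPM in other Tconv cells. TGFBR3, NKG2D, NCR3, HCST and S1PR5, like RUNX3 and ID2 below, were picked for mention from the 274 higher genes after their values were seen.

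HOPX, a homeobox protein of effector T cells, was the transcription regulator among those 12. It had 947 CPM in cluster 5 and 33.9 CPM in other Tconv cells on day 20, and 909.9 and 33.3 CPM on day 3. TBX21, encoding T-bet, the regulator of Th1 and cytotoxic programmes, had 162 CPM in cluster 5 against 2.0 CPM in other Tconv cells on day 20, and on day 3, 127 CPM in cluster 5 against 1.42 CPM in other Tconv cells. ZEB2, which acts with T-bet in mouse effector cells, had 105 CPM in cluster 5 on day 20 and 117 CPM on day 3, against 0.429 and 0.631 CPM in other Tconv cells. PRDM1, encoding Blimp-1, had 260.3 CPM in cluster 5 against 42.7 CPM in other Tconv cells on day 20, and on day 3, 286 CPM in cluster 5 against 40.7 CPM in other Tconv cells. RUNX3 and ID2 are further regulators of effector lymphocytes. RUNX3 had 85.4 and 109 CPM in cluster 5 on day 20 and day 3, against 15.3 and 13.1 CPM in other Tconv cells, and ID2 had 1515 and 2002 CPM in cluster 5 on day 20 and day 3, against 382 and 489 CPM in other Tconv cells. IFNG, encoding interferon gamma, stayed under 20 CPM, with 9 UMIs in cluster 5 on day 20 and 12 on day 3.

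A list of memory and effector genes had 24 of 26 found members at 20 CPM or more, of which 17 were 2-fold higher and 1 was lower (median 1.73). Over all genes at that level, 9.3% were higher and 1.79% lower. S100A4, a calcium-binding protein of memory T cells, had 9164 CPM in cluster 5 on day 20 (8976 to 9355) against 521 CPM in other Tconv cells, and 9676 CPM on day 3 (9483 to 9873) against 556 CPM. The integrin chain ITGB2 had 611 CPM in cluster 5 against 113 CPM in other Tconv cells on day 20, and on day 3, 582 CPM in cluster 5 against 105 CPM in other Tconv cells. Its partner ITGAL, with which it forms the adhesion receptor LFA-1, had 152 and 141 CPM in cluster 5 on day 20 and day 3, against 40.4 and 33.8 CPM in other Tconv cells. LGALS1, the lectin galectin-1, had 1695 CPM in cluster 5 against 383 CPM in other Tconv cells on day 20, and on day 3, 1917 CPM in cluster 5 against 449 CPM in other Tconv cells. The memory marker CD44 had 79.3 CPM in cluster 5 against 20.9 CPM in other Tconv cells on day 20, and on day 3, 102 CPM in cluster 5 against 24.0 CPM in other Tconv cells. The single lower member was TNFSF13B, the B cell factor BAFF, with 2 UMIs in cluster 5 on day 20 and 3 on day 3, against 32.3 and 24.3 CPM in other Tconv cells.

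MHC class II genes, whose products present peptides to CD4 T cells and which human T cells express on activation, were also higher. HLA-DPA1 had 173 CPM in cluster 5 on day 20 and 115 CPM on day 3, against 2.14 and 2.37 CPM in other Tconv cells. Mamu-DPB1 had 134 and 80.3 CPM in cluster 5 on day 20 and day 3, against 1.57 and 2.05 CPM in other Tconv cells. DRA had 87.4 and 34.6 CPM in cluster 5 on day 20 and day 3, against 2.14 and 4.10 CPM in other Tconv cells. These 3 were the members of 12 found that reached 20 CPM. They did so only through cluster 5 and so had to be higher there. DRA was added to the list after the spellings in the file were seen, and without it the list had too few measured members for a median. CD74 and CIITA, the invariant chain and the class II transactivator, had at most 2 UMIs in cluster 5 on either day. Reads of MHC genes can be split among near-identical copies.

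Genes of naive T cells were among those with the lowest ratios. LEF1 had 12.2 CPM in cluster 5 against 263 CPM in other Tconv cells on day 20, and on day 3, 30.5 CPM in cluster 5 against 263 CPM in other Tconv cells. TCF7 had 24.4 and 30.5 CPM in cluster 5 on day 20 and day 3, against 216 and 197 CPM in other Tconv cells. PECAM1, the adhesion molecule CD31, had 26.4 CPM in cluster 5 against 240.5 CPM in other Tconv cells on day 20, and on day 3, 40.7 CPM in cluster 5 against 210 CPM in other Tconv cells. ITGA6, an integrin chain that binds laminin, had 13.2 CPM in cluster 5 against 107 CPM in other Tconv cells on day 20, and on day 3, 17.3 CPM in cluster 5 against 112 CPM in other Tconv cells. Of 14 measured members of a naive and quiescent T cell list, 6 were 2-fold lower and 1 higher, with a median of -0.90, where 1.79% and 9.3% of all genes at 20 CPM were lower and higher. The higher member was the costimulatory receptor CD27, with 38.6 CPM in cluster 5 against 12 CPM in other Tconv cells on day 20, and on day 3, 41.7 CPM in cluster 5 against 16.9 CPM in other Tconv cells. CCR7, the chemokine receptor that guides T cells to lymph nodes, was near 0 on both sides and could not be compared, with no UMI in cluster 5 on day 20 and 1 on day 3.

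Further genes with large negative ratios included CA6 and RGS10. CA6, a secreted carbonic anhydrase, had 26.4 and 46.8 CPM in cluster 5 on day 20 and day 3, against 338 and 324 CPM in other Tconv cells. The G protein regulator RGS10 had 16.3 and 30.5 CPM in cluster 5 on day 20 and day 3, against 172 and 156 CPM in other Tconv cells. RCN3, GstT1, RCAN3, APOD and BEX4 were also among the 12 lowest, with 5.08 to 21.4 CPM in cluster 5 and 54.4 to 129 CPM in other Tconv cells. Genes of helper and central memory cells were mixed, since GPR183, a receptor for oxysterols that positions lymphocytes, LTB, encoding lymphotoxin beta, and TNFRSF25, the receptor of TL1A, were 2-fold lower and the chemokine receptor CXCR4 higher. LTB had 427 CPM in cluster 5 against 1657 CPM in other Tconv cells on day 20, and on day 3, 541 CPM in cluster 5 against 1524 CPM in other Tconv cells. MYC, the growth regulator, had 33.6 CPM in cluster 5 against 141 CPM in other Tconv cells on day 20, and on day 3, 35.6 CPM in cluster 5 against 160.0 CPM in other Tconv cells.

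IL7R, the gene of the surface protein used in the sort and the usual marker of conventional CD4 cells, was present but did not set cluster 5 apart. It had 798 CPM in cluster 5 on day 20 (743 to 856) against 914 CPM in other Tconv cells, and 646 CPM on day 3 (596 to 698) against 810.0 CPM, a mean log2 ratio of -0.26, or -0.73 with TMM factors. The T cell receptor component CD3D had 1630.0 CPM in cluster 5 against 1184 CPM in other Tconv cells on day 20, and on day 3, 1595 CPM in cluster 5 against 1123 CPM in other Tconv cells. CD40LG, the helper ligand for B cells, had 109 CPM in cluster 5 against 82.4 CPM in other Tconv cells on day 20, and on day 3, 76.2 CPM in cluster 5 against 54.1 CPM in other Tconv cells. The moderate ratios of CD3D and CD40LG are read against the median gene, at 0.42, which TMM factors moved by -0.43. No direction is therefore given for them. CD4 itself was sparse in every Tconv cluster, with 6.10 CPM in cluster 5 against 3.43 CPM in other Tconv cells on day 20, and on day 3, 13.2 CPM in cluster 5 against 6.31 CPM in other Tconv cells. What the authors' label conventional CD4 cells rests on was not examined here. The gate required CD3 and CD4, and IL7R and the CD3 genes were present. In contrast, TCF7, LEF1 and LTB of the conventional CD4 marker list were lower.

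Markers of other cells with granzymes were looked up beside these results. CD8A had no UMI in cluster 5 on either day, and CD8B had 4 UMIs on day 20 and none on day 3. In other Tconv cells CD8A was found in 1 of 3008 cells on day 20 and 2 of 2411 on day 3, so it does not separate the groups. CD8B was found in 0.654% of cluster 5 cells against 0.133% of other Tconv cells on day 20, and in none against 0.290% on day 3. CD4, which the gate required, was itself found in only 0.980% and 2.37% of cluster 5 cells on day 20 and day 3. Low counts of these genes therefore say little. Of 10 NK cell markers, all found, 3 reached 20 CPM, and of these GNLY and KLRD1, the receptor chain CD94, were 2-fold higher. Over all genes at that level, 9.3% were 2-fold higher. KLRD1 reached 20 CPM only through cluster 5 and so had to be higher there. The count describes the list and no more. KLRD1 had 77.3 and 81.3 CPM in cluster 5 on day 20 and day 3, against 0.143 and 0.473 CPM in other Tconv cells. TYROBP, an NK and myeloid adaptor, had 67.1 CPM in cluster 5 against 66.3 CPM in other Tconv cells on day 20, and on day 3, 108 CPM in cluster 5 against 65.0 CPM in other Tconv cells. NCAM1 (CD56) had no UMI in cluster 5, KLRF1 had 8 UMIs on day 20 and 9 on day 3, and FCGR3 (CD16) had 6 and 5. Their values in other Tconv cells are not given here, so no difference is read from these low counts. The list members NCR1, KLRC1 and KLRC3 also did not reach the 20 CPM level. FCER1G had no UMI in cluster 5 or in other Tconv cells, so it does not separate them. The NK list summed to 1416 CPM in cluster 5 on day 20 and 1362 CPM on day 3, of which GNLY gave 1255 and 1155 CPM, against 98.9 and 94.3 CPM in other Tconv cells. These sorts required CD3 and CD4 on the surface, of which NK cells lack CD3 and CD8 T cells lack CD4. Constant genes of gamma delta T cells were not analysed here. B cell, monocyte, dendritic and platelet lists each summed to at most 22.4 CPM in cluster 5. Red cell markers summed to 159 CPM in cluster 5 against 145 CPM in other Tconv cells on day 20, and on day 3, 222 CPM in cluster 5 against 513 CPM in other Tconv cells.

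The defining Treg genes were near 0 in cluster 5. FOXP3, the master regulator of Tregs, had 1 UMI in cluster 5 on day 20 and none on day 3, IL2RA had 4 and 5, and CTLA4, an inhibitory receptor, 15 and 11. In other Tconv cells FOXP3 was found in 1 of 3008 cells on day 20 and 3 of 2411 on day 3, so it does not set cluster 5 apart. IL2RA was found in 1.23% and 1.37% of them, and the CD25-negative gate applied to both groups. Of 20 found members of a Treg core list, 7 reached 20 CPM. Of these, 4 were 2-fold higher (median 1.47), namely CSF1, TNFRSF1B, PRDM1 and TNFRSF18, against 9.3% of all genes at 20 CPM. CSF1 and TNFRSF1B reached 20 CPM only through cluster 5 and so had to be higher there. The count describes the list and no more. CSF1, encoding the macrophage growth factor M-CSF, had 149 CPM in cluster 5 on day 20 and 101 CPM on day 3, against 5.14 and 5.52 CPM in other Tconv cells. TNFRSF1B, the second receptor for TNF, had 180.0 CPM in cluster 5 against 13.7 CPM in other Tconv cells on day 20, and on day 3, 150.5 CPM in cluster 5 against 15.5 CPM in other Tconv cells. All 4 genes are also known from activated T cells.

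**Figure D3:**
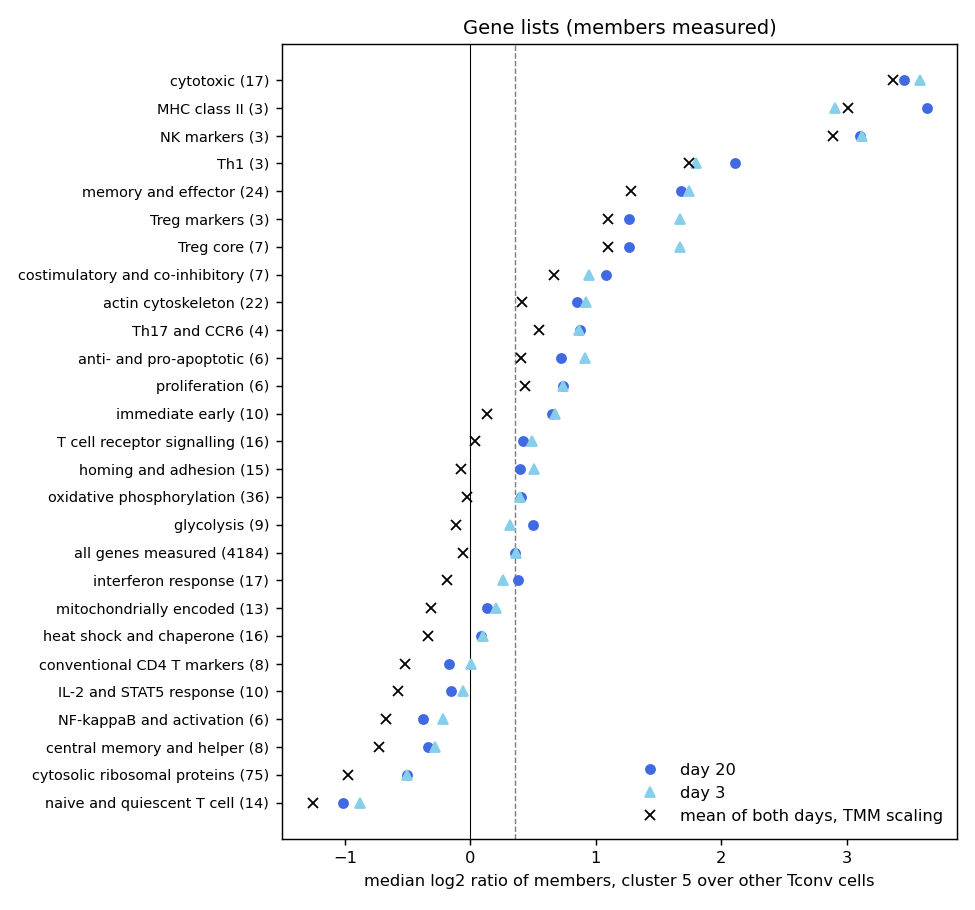
Median log2 ratio of cluster 5 over other Tconv cells (x axis) for each gene list with at least 3 measured members (y axis, number measured in brackets), on day 20, on day 3 and as the mean with TMM factors. The dashed line is the median of all 4184 genes measured, 0.36. Cytotoxic genes are at 3.52 and naive genes at -0.90, and the crosses show that lists between about 0 and 0.5 change sign or lose most of their ratio with TMM factors.

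Lists of general cell functions stood closer to the median gene. They are read against the 9.3% of all genes at 20 CPM that were 2-fold higher and the 1.79% that were lower. Of 22 genes of the actin cytoskeleton, 8 were 2-fold higher and 1 lower (median 0.88, or 0.41 with TMM factors). ACTB had 10684 CPM in cluster 5 against 4600.2 CPM in other Tconv cells on day 20, and on day 3, 11911 CPM in cluster 5 against 4459 CPM in other Tconv cells. The lower member was COTL1, an actin-binding protein, with 204 and 173 CPM in cluster 5 on day 20 and day 3, against 447 and 410.1 CPM in other Tconv cells. T cell receptor signalling genes had 3 of 16 members 2-fold higher and none lower (median 0.47, or 0.04 with TMM factors), among them the kinase LCK with 574 and 536 CPM in cluster 5 on day 20 and day 3, against 271 and 231 CPM in other Tconv cells. Cytosolic ribosomal protein genes were lower, with a median of -0.50 over 75 genes, or -0.98 with TMM factors. None of them reached 2-fold and 23 were at least 1.5-fold lower, where 7.4% of the 2175 genes at 50 CPM were 1.5-fold lower and 34.3% higher. RPL10A had the lowest ratio among them, -0.89. Medians of the interferon response (0.18), oxidative phosphorylation (0.42), glycolysis (0.39), homing and adhesion (0.45), heat shock (0.10) and mitochondrially encoded (0.15) lists stood near the all-gene median and turned negative with TMM factors, so no direction is given for them. The homing and adhesion median lay between members that differed in direction, since 6 of 15 were 2-fold higher (40.0%) and 5 lower (33.3%), ITGB2 and ITGAL among the higher and PECAM1 and ITGA6 among the lower. Immediate early genes (0.68) and proliferation genes (0.75) kept 0.14 and 0.43 with TMM factors, and anti- and pro-apoptotic genes (0.82) kept 0.41.

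Cell by cell, the share of members with a UMI differed widely between the cytotoxic genes. After each cell was thinned to 1000 UMIs, GZMB had a UMI in 93.4% of cluster 5 cells on day 20 (91.2 to 95.3%, n = 610 cells) and 92.9% on day 3 (90.4 to 94.9%, n = 549). The same shares were 1.36% and 1.87% in other Tconv cells, at median depths of 2298 and 2569 UMIs before thinning. Single other Tconv cells had up to 7 GZMB UMIs on day 20 and 11 on day 3 before thinning. Whether such cells express GZMB or hold stray transcripts was not tested. Unthinned, GZMB was found in 95.4% and 96.2% of cluster 5 cells against 2.93% and 4.15% of other Tconv cells. NKG7 had a UMI in 67.4% and 69.9% of thinned cluster 5 cells, GNLY in 53.6% and 49.7%, and KLRB1 in 50.8% and 54.6% on day 20 and day 3. Less abundant genes were found in fewer of these cells, with GZMM in 25.7% and 26.4%, CX3CR1 in 22.8% and 17.7%, TBX21 in 14.9% and 13.1%, KLRD1 in 7.21% and 6.74% and GZMH in 6.39% and 6.92%. The 6 genes GZMB, NKG7, GNLY, CST7, CCL4L1 and KLRB1 were chosen as those with the largest ratios among genes with a symbol. Of them, a median of 4 were detected per thinned cluster 5 cell on each day, and at least 3 in 81.5% of cells on day 20 and 82.3% on day 3, against 0.399% and 0.415% of other Tconv cells. Since the 6 genes were picked on this same contrast, the gap to other Tconv cells follows from the choice and is no separate evidence.

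IL7R and GZMB were found in the same cells. IL7R had a UMI in 48.9% of thinned cluster 5 cells on day 20 (44.8 to 52.9%) and 42.1% on day 3 (37.9 to 46.3%), against 54.7% and 51.8% of other Tconv cells. On day 20, 92.6% of the cluster 5 cells with an IL7R UMI had a GZMB UMI, against 94.2% of those without, and on day 3 the shares were 91.3% and 94.0%, with overlapping intervals. KLRB1 had a UMI in 45.0% of the cells with a GNLY UMI on day 20 (39.5 to 50.5%) and in 57.6% of those without (51.6 to 63.4%). On day 3 these shares were 50.9% and 58.3%, with intervals that overlapped, and the difference was not tested. CX3CR1 was found in similar shares of cells with and without KLRB1, at 24.2% and 21.3% on day 20 and 18.7% and 16.5% on day 3. Cells within a library share their source, so these shares describe cells and not replicates.

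Most of the reads of these genes in the libraries came from cluster 5. Its cells supplied 12.1% of all UMIs of the CD127-positive CD25-negative library on day 20 and 13.04% on day 3. For GZMB they supplied 92.9% and 94.8%, for CX3CR1 96.7% and 96.3%, and for S100A4 69.1% and 70.4%. IL7R came from cluster 5 in a proportion close to its share of all UMIs, 10.8% on both days.

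Against the Tconv clusters 1 by 1, 263 of the 274 higher genes were above, and 41 of the 48 lower genes below, each of clusters 6, 7, 9 and 10 on both days. These genes were chosen by their ratio to the sum of the same clusters, so the counts are largely built in and test nothing. The same share over all genes was not taken. Cluster 8 had only 11 and 15 cells in these libraries and was left out. Cluster 9 was the most alike, with a Spearman correlation of 0.82 over genes on each day, ahead of cluster 7 (0.79 on each day), cluster 6 (0.71 on day 20, 0.72 on day 3) and cluster 10 (0.71 on each day). These correlations run across 2406 genes on day 20 and 2337 on day 3 in 1 library each and are descriptions. Cluster 9 held intermediate levels of some of the genes. S100A4 had 9164 CPM in cluster 5, against 3404 CPM in cluster 9 and 50.3 CPM in cluster 6 on day 20. On day 3 it had 9676 CPM in cluster 5, against 4102 CPM in cluster 9 and 59.4 CPM in cluster 6. KLRB1 had 180.3 CPM in cluster 9 on day 20 and 238 CPM on day 3, and GNLY 199.6 and 224 CPM. GZMB was low in cluster 9, with 31.5 CPM on day 20 and 30.02 CPM on day 3, beside 12.6 and 16.9 CPM in cluster 6. IL7R was highest in cluster 9, with 1219 CPM on day 20 and 1189 CPM on day 3.

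**Figure D4:**
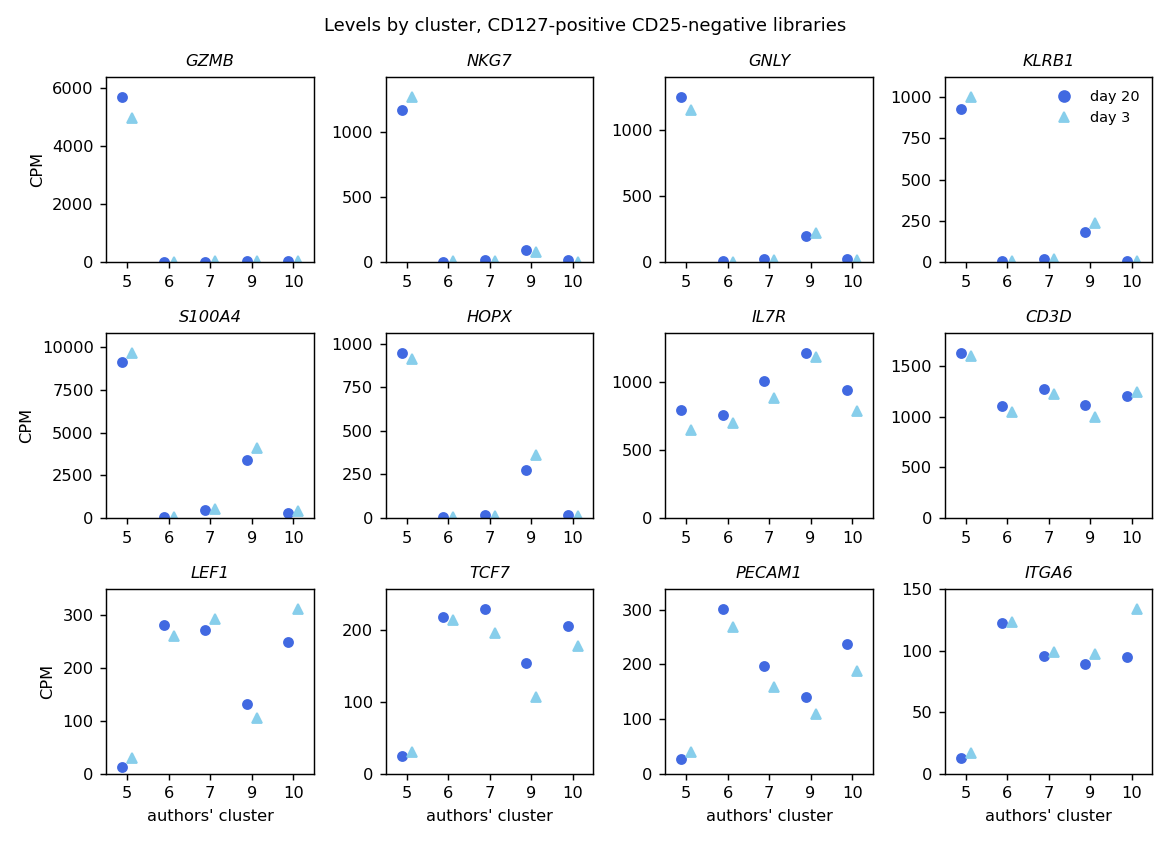
Levels in CPM (y axes, from 0) of 12 genes in cluster 5 and in clusters 6, 7, 9 and 10 (x axes) of the CD127-positive CD25-negative libraries, on day 20 (circles) and day 3 (triangles). GZMB and NKG7 stand out in cluster 5, S100A4 and HOPX have lower levels in cluster 9 and are low elsewhere, and LEF1, TCF7, PECAM1 and ITGA6 are lowest in cluster 5.

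Genes called without a symbol in the sources are given by identifier. ENSMMUG00000038528 had 1817 CPM in cluster 5 on day 20 and 2182 CPM on day 3, against 110.0 and 92.1 CPM in other Tconv cells. ENSMMUG00000047311 had 1221 and 1379 CPM in cluster 5 on day 20 and day 3, against 267 and 318 CPM in other Tconv cells. Of the 322 genes called in either direction, 294 were matched by symbol to the RefSeq order of genes, and 10 pairs of them were neighbours, of which 8 had the same direction. Since 274 of the 322 were higher, most pairs of called genes share a direction, and the count is no result about neighbours. The pairs included APOBEC3H and APOBEC3G, which are cytidine deaminases that restrict retroviruses, and LST1 and LTB, which lie in the MHC region in human.

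Between days, cluster 5 changed little. Of 2238 genes with at least 50 CPM on either day, 2 (0.0894%) were at least 2-fold higher on day 20 than on day 3 and 6 (0.268%) at least 2-fold lower. In other Tconv cells 0 of 1678 genes (0.0%) were higher and 2 (0.119%) lower. With 1 library per day, no gene was tested, and the day cannot be told apart from the capture.

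DRA was the higher gene with the larger ratio, with 87.4 CPM in cluster 5 on day 20 (69.9 to 108.0) and 34.6 CPM on day 3 (23.9 to 48.3), a log2 ratio of 1.13. In other Tconv cells it had 2.14 CPM on day 20 and 4.10 CPM on day 3. HLA-DPA1 (log2 ratio 0.55) and Mamu-DPB1 (0.68) had the same direction in cluster 5 without reaching 2-fold, and a UMI of HLA-DPA1 was found in 15.6% of thinned cells on day 20 (12.8 to 18.7%) and 9.11% on day 3 (6.84 to 11.8%). GRAMD1A, a carrier of cholesterol at membrane contacts, had 56.9 CPM in cluster 5 on day 20 (43.0 to 73.9) and 22.4 CPM on day 3 (14.0 to 33.9), a log2 ratio of 1.05. It fell short of 2-fold with TMM factors (0.96), as with the other scalings, and DRA did so after thinning (0.83). With 30 CPM added, neither reached 2-fold (DRA 0.86, GRAMD1A 0.73).

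SEPT1, a septin of the cytoskeleton, was lower on day 20, with 31.5 CPM (21.4 to 44.7) against 90.5 CPM on day 3 (72.7 to 111). Mamu-F, an MHC class I gene, had 20.3 CPM on day 20 (12.4 to 31.4) and 55.9 CPM on day 3 (42.1 to 72.8). IL2RG, the receptor chain shared by interleukins 2, 7 and 15, had 28.5 CPM on day 20 (18.9 to 41.2) and 67.1 CPM on day 3 (51.9 to 85.4). HBB, encoding beta globin of red cells, had 0 UMIs in cluster 5 on day 20 (exact upper bound 3.75 CPM) and 60.0 CPM on day 3, while in other Tconv cells it had 0.143 CPM on day 20 and 366 CPM on day 3. The other 2 genes lower on day 20 were ribosomal or without a symbol. With 30 CPM added, HBB (-1.58) was the 1 gene of the 6 still 2-fold lower. Of all 8 genes, 7 had the same sign in other Tconv cells and 1 passed 2-fold there.

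As a list, the cytotoxic genes held their level between the days. Single members differed, with GZMA higher and GZMH lower on day 20, both short of 2-fold on the scale used. GZMB had a log2 ratio of day 20 over day 3 of 0.20 in cluster 5, S100A4 of -0.08 and IL7R of 0.30. Of 17 cytotoxic genes measured none reached 2-fold in either direction (median 0.06), as over all genes measured (median 0.06). RGS1, a regulator of chemokine receptor signalling, had 128 CPM on day 20 and 255 CPM on day 3, just short of 2-fold on the scale used, and its ratio had the same sign in other Tconv cells, with 20.3 CPM on day 20 and 39.6 CPM on day 3.

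**Figure D5:**
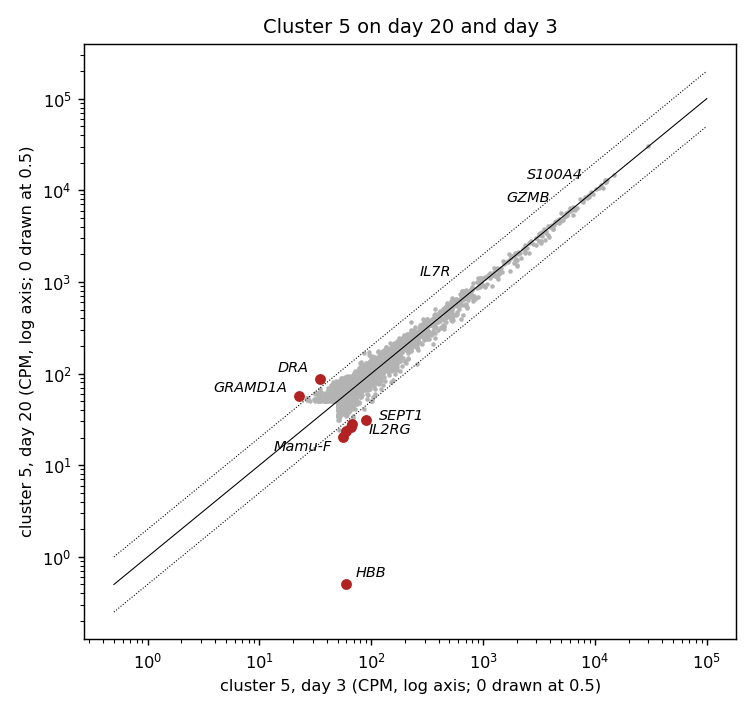
Levels of 2238 genes in cluster 5 of the CD127-positive CD25-negative libraries on day 20 (y axis) and day 3 (x axis), in CPM on log axes, with 0 drawn at 0.5. The solid line marks equal levels, the dotted lines 2-fold, and red points the 8 genes past 2-fold after 10 CPM was added. GZMB, S100A4 and IL7R lie near the solid line, and HBB, at 0 on day 20, lies far below it.

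The 57 cluster 5 cells of the other 6 libraries, with 106437 UMIs in all, had a like profile. Summed over these libraries, GZMB had 5506 CPM in cluster 5 (5069 to 5970) against 4.37 CPM in the other Tconv cells of the same libraries. It ranged from 3486 to 8555 CPM over the 6 libraries, so each was far above the other Tconv cells there. S100A4 had 8540.3 CPM in cluster 5 (7994 to 9114) against 1476 CPM in other Tconv cells, and GNLY 2668 CPM in cluster 5 (2367 to 2997) against 43.2 CPM in other Tconv cells. The CFSE-positive libraries stood closer for GNLY, with 2383 and 2776 CPM in cluster 5 on day 20 and day 3, against 740 and 904 CPM in other Tconv cells. IL7R had 620.1 CPM in cluster 5 (480 to 789) against 839 CPM in other Tconv cells. In the CFSE-positive libraries it had 325 and 252 CPM in cluster 5 on day 20 and day 3, against 227 and 153 CPM in other Tconv cells, from 3 UMIs and 1 UMI in cluster 5. LEF1 had no UMI in these cells, which gives an exact upper bound of 34.7 CPM, against 175 CPM in other Tconv cells. FOXP3 had 1 UMI among the 57 cells, or 9.40 CPM (0.238 to 52.3), against 9.95 CPM in other Tconv cells. No other sort reached 50 cells of cluster 5, so the sorts were not compared within it.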

How the data were processed

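The deposited table holds unscaled whole UMI counts for each gene in each cell of 8 libraries (10x 3' version 2 chemistry, per the labels; Cell Ranger 2.1.1, per the submitters' processing notes), and the authors deposited with it each cell's library, cluster and class (unit other: names, not measurements). Neither the genome build nor the clustering method is given in the sources used here. Cluster members, gene lists and comparisons were chosen with earlier results of these data known. All cells were kept and no doublet caller was run. An alternative left out 10 doublet-like cells of cluster 5 and 456 of other Tconv cells, which had 3 or more UMIs of platelet, monocyte, B cell or red cell markers or over 2 times the library's median UMIs. Of 3130 identifiers without a symbol, 309 were named from the reference table, and no sequences were used.

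Counts were summed per library and side where both had at least 50 cells, divided by the total, and compared as log2(CPM + 10) within a library. Genes were called at 2-fold with at least 50 CPM on either side. Lists used members with at least 20 CPM. Named were the 12 genes per direction with the largest mean ratio, and up to 8 per direction between days, without unnamed, mitochondrial and ribosomal genes, plus list members. Of these, 1 lower gene is not reported here, though counts include it. Per-cell shares were taken after thinning to 1000 UMIs, which left out 2 cluster 5 cells. No test was run, since the clusters were drawn from the genes compared, and each sort and day is 1 library. Scaling factors came from edgeR 4.0.16 and DESeq2 1.42.0, and the steps were tested on simulated data.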

Additional observations from a re-analysis of the deposited data

Results flagged for a closer look

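HBQ1, a globin gene of red cells, passed 2-fold in opposite directions on the 2 days when cluster 5 was set against other Tconv cells. On day 20 it had 23.4 CPM in cluster 5 (14.8 to 35.1) and 4.57 CPM in other Tconv cells (3.13 to 6.45), a log2 ratio of 1.20. On day 3 it had 32.5 CPM in cluster 5 (22.3 to 45.9) and 143 CPM in other Tconv cells (134 to 153), a log2 ratio of -1.85. The difference between the days was not tested. The red cell gene HBB had 0 CPM in cluster 5 and 0.143 CPM in other Tconv cells on day 20, and 60.0 and 366 CPM on day 3. Its part in the result was not tested.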

How the results depend on the processing

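The 12 higher and 12 lower named genes of the contrast stayed past 2-fold under every alternative run, and none of their ratios changed sign. Genes named only as list members are not covered by this statement. Medians of the interferon, oxidative phosphorylation, glycolysis, homing, heat shock and mitochondrially encoded lists, all short of 1.5-fold, turned negative with TMM factors (-0.19, -0.03, -0.11, -0.07, -0.34 and -0.31). The IL-2 list had a median of -0.12 and a mean of 0.01. Of single values, 311 stayed within the limit used and 171 moved further. The count of 274 higher genes became 126 with TMM factors, 133 with median-of-ratios factors, 131 with totals without ribosomal, mitochondrial and hemoglobin genes, 182 with a pseudocount of 30 CPM and 419 without a filter. The count of 48 lower genes became 188, 159 and 167 with these scalings and 96 without a filter. Leaving out either library gave 285 to 291 higher and 44 to 56 lower genes.

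Between days, the 2 higher genes became 1 under each of the 3 scalings and without doublet-like cells, 4 with a pseudocount of 1 CPM, 0 with 30 CPM, 9 without a filter and 5 after thinning. The 6 lower genes became 10 with a pseudocount of 1 CPM, 1 with 30 CPM and 11 without a filter. Of the gene lists, 13 had a median at least 1.5-fold higher, against 8 with TMM factors and 8 with those totals. Only 1 was 1.5-fold lower, against 3 with means of members, 4 with TMM factors and 4 with those totals. The alternative without shared barcodes was chosen after the data were seen and moved no count past 1.5 times. The day counts rest on few UMIs per gene. No paired analysis was possible because no result comes from a test: the clusters were drawn from the genes compared, and ratios were already taken within each library. The sorts could not be compared within cluster 5, so their alternatives were not run.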
